A study of Mus musculus with 6 samples.

Results

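The genes described here encode the subunits of Integrator and of the machinery that cleaves and polyadenylates pre-mRNA. Members were taken by name from the protein-coding rows of the deposited table. They comprise the numbered Ints, Cpsf and Cstf genes with Ints6l and Cstf2t, and Pcf11, Clp1, Fip1l1, Wdr33, Sympk, Nudt21, Papola, Papolg, Xrn2, Rbbp6, Scaf4 and Scaf8. This gave 37 genes of 55232 features, and all 37 passed the filter on low counts, with 208 to 5095 reads in each library. The sequenced RNA came from mouse pulmonary microvascular endothelial cells (MPVEC, labelled as a cell line), which had shared a co-culture for 12 h and sat in its lower chamber. In the repletion group, 3 samples had been grown beside TCMK-1, a kidney tubular line of the mouse, whose cells had regained ATP after ATP depletion, a treatment the labels abbreviate as IR. In the control group, 3 samples had been grown with untreated TCMK-1 cells.

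Integrator is a large nuclear complex bound to RNA polymerase II. It carries an RNA endonuclease, which cuts nascent small nuclear RNAs and many short promoter-proximal transcripts, and a recruited PP2A phosphatase, which counteracts the kinases that release paused polymerase. The cleavage and polyadenylation machinery acts at the other end of protein-coding genes: CPSF recognises the polyadenylation signal and cuts the RNA, CstF and the cleavage factors CFIm and CFIIm bind around the site, and poly(A) polymerase adds the tail. The nuclease Xrn2 then degrades the downstream RNA, which helps polymerase to leave the template. In many cell types, the supply of these factors is known to affect which of several polyadenylation sites a gene uses.

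The libraries held 15582349 to 17817618 reads assigned to features, and the members took up 0.317% to 0.333% of them in the repletion group, against 0.273% to 0.295% in control. The labels do not state whether a group's samples were separate cultures, so p-values measure only the spread among the libraries sequenced, possibly a technical one. Replicates of a group were further apart than counting noise allows (chi-square of 8.56 to 23.3 per feature). All 12 endothelial markers averaged at least 1 CPM (reads scaled to library depth) and summed to 2640 to 3110 CPM in the repletion group, against 2460 to 2740 in control. Of these, 5 rose (Erg, Eng, Robo4, Tek and Ets1) and 2 fell (Esam and Vwf), with log2 fold changes of 1.06 for Erg and -0.46 for Esam at the extremes. Tubular markers summed to 29.3 to 34.0 CPM in the repletion group, against 16.3 to 19.9 in control, and 4 of 17 averaged at least 1 CPM (Cubn, Aqp1, Pax8 and Pax2). Without Cubn, at 15.1, 11.5 and 15.6 CPM in the repletion libraries and 3.39, 3.90 and 3.03 in the control libraries, the sums overlapped, at 13.8 to 18.9 CPM in the repletion group and 12.9 to 16.8 in control, and Slc34a1, Umod, Hnf4a, Epcam and Krt18 were at 0 in every library. Leukocyte markers summed to 223 to 312 CPM in the repletion group, against 378 to 416 in control, nearly all of it Cd68, with Cd3e and Itgam at 0. Cd68 fell, with a log2 fold change of -0.63. Fibroblast and mural markers summed to 17.7 to 25.2 CPM in the repletion group, against 20.4 to 23.1 in control, with Lum at 0. Lung epithelial markers summed to 0.906 to 1.80 CPM in the repletion group, against 0.224 to 0.925 in control, with Sftpc, Sftpa1, Nkx2-1, Scgb1a1 and Hopx at 0. Of the lung epithelial markers, Ager rose, with a log2 fold change of 2.20, at no more than 1.41 CPM in any library. The part of these marker shifts in the results was not tested. In bulk RNA, fewer cells of a type and less RNA per cell cannot be told apart.

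Integrator and 3′ end processing genes moved in both directions in the repletion group, and subunits of the same complex parted from each other. The 5 rises of at least 2-fold were in Ints3, Ints6, Rbbp6, Ints13 and Pcf11, with fold changes of 2.23 to 4.59. No member fell by as much, whereas 2.77% of tested features did, and the largest fall was that of Cpsf4, to 0.604 of control. At an adjusted p under 0.05 in edgeR's quasi-likelihood test, 12 of 37 members rose, or 32.4%, and 8 fell, or 21.6%, against 20.5% and 19.2% of all 13804 tested features. Rises of at least 2-fold made up 13.5% of members, against 7.53% of tested features. The median log2 fold change was 0.03 over the members and 0.00 over all tested features, and the median absolute log2 fold change was 0.30, against 0.35 over tested protein-coding genes. Repletion libraries all lay above control libraries for 12 members, or 32.4%, against 25.0% of tested features, and all lay below them for 7, or 18.9%, against 25.4%. In either direction this held for 19 of 37, or 51.4%, against 50.3%. The members were chosen with earlier results of these data known, so these shares are a description. In the authors' deposited table, the same 12 members were higher and the same 8 lower at an adjusted p under 0.05.

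**Figure D1:**
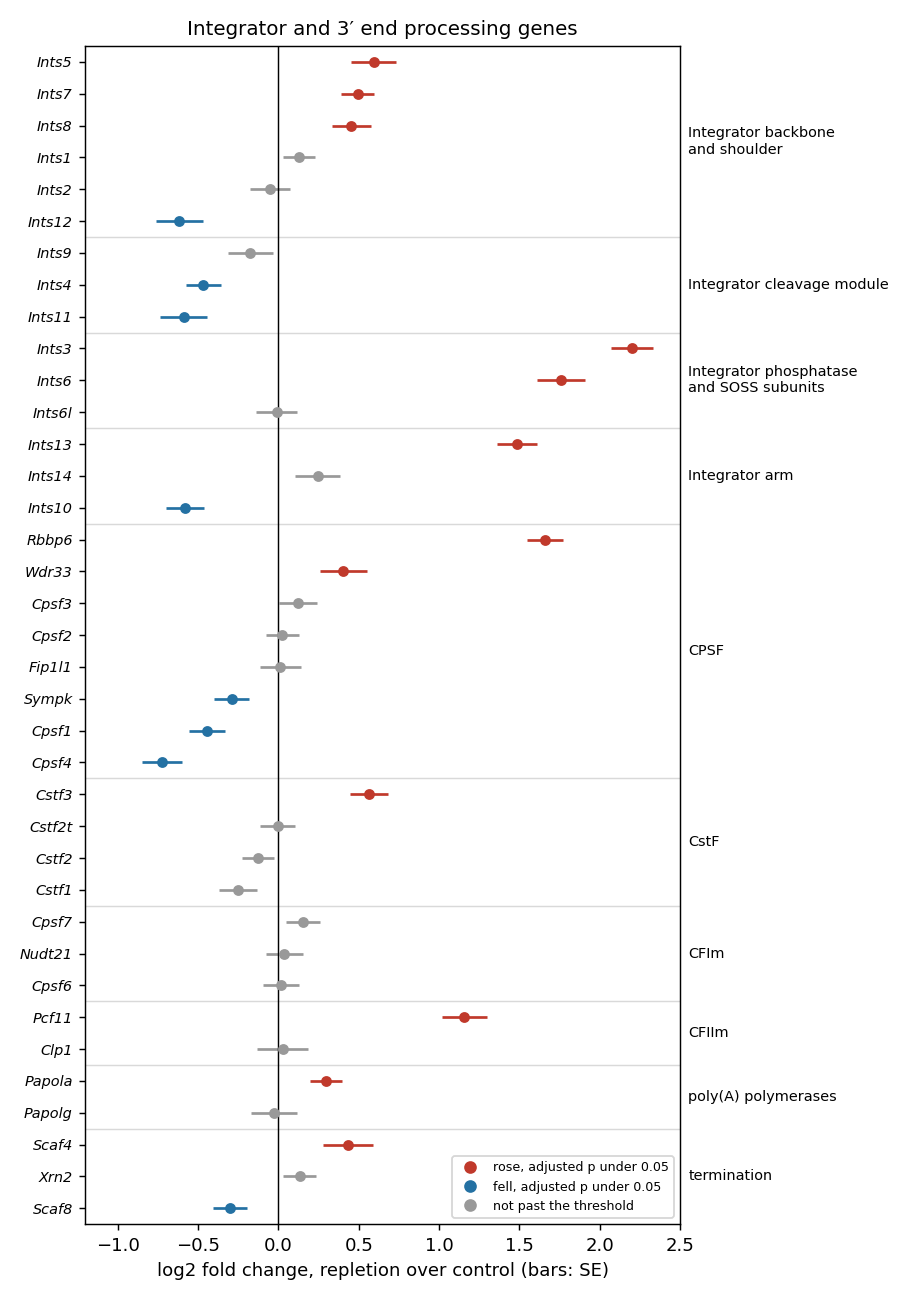
Log2 fold change of each of the 37 members, repletion over control, from edgeR, with its standard error, grouped by complex; colour marks the members past an adjusted p of 0.05. Ints3, Ints6, Rbbp6, Ints13 and Pcf11 lie beyond 1, while the cleavage module of Integrator and Cpsf4 lie below 0.

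The upstream sequences of the 5 genes that rose at least 2-fold are given beside that of Cpsf4, the gene with the largest fall. These members moved most. Each run holds the 250 bases before the RefSeq start in GRCm38.p6, 5′ to 3′ on the gene's strand, and capitals mark any of 8 motifs searched on both strands.
Ints3: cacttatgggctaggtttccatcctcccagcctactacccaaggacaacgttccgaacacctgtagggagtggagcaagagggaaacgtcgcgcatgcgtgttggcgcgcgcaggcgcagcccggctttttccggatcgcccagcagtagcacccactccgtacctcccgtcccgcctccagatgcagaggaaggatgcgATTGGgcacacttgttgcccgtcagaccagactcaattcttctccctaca
Ints6: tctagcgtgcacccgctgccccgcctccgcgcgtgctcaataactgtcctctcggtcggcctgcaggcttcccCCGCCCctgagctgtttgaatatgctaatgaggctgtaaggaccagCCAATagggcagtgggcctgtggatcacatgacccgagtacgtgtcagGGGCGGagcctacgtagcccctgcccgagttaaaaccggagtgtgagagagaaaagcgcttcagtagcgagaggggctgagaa
Rbbp6: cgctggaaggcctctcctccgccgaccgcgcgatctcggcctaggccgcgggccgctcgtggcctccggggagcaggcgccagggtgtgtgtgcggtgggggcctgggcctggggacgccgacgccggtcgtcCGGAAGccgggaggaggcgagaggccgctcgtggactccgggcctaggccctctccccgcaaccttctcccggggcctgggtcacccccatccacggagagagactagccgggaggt
Ints13: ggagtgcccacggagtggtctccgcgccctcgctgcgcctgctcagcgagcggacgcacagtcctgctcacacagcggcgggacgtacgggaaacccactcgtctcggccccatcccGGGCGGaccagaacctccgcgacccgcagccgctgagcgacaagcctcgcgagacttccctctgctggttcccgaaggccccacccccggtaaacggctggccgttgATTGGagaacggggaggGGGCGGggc
Pcf11: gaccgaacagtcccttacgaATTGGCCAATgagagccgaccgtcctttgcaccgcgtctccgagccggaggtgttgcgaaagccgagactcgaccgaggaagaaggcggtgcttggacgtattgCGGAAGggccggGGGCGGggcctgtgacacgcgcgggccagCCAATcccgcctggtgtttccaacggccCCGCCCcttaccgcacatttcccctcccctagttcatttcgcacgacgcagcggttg
Cpsf4: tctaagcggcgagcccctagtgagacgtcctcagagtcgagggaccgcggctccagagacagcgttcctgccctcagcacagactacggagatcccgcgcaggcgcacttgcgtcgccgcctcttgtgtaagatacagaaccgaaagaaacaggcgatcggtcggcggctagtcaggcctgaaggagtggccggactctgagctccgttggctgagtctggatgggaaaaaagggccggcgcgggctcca
The windows are chr3:90433637-90433886 (minus strand) for Ints3, chr14:62761113-62761362 (minus) for Ints6, chr7:122970314-122970563 (plus) for Rbbp6, chr6:146577836-146578085 (minus) for Ints13, chr7:92669913-92670162 (minus) for Pcf11 and chr5:145166963-145167212 (plus) for Cpsf4. The window of Rbbp6 lies inside the deposited span of the gene, since RefSeq places its start further downstream. Those of Ints6 and Pcf11 run in part into the deposited spans, which end at 62761169 and 92669934. The windows are rich in G and C, from 59.6% for Ints3 to 75.2% for Rbbp6, and hold 17 to 29 CpG dinucleotides each. Of the 37 members, 31 had such a window, with a median of 62.0% G and C and 22 CpG, against 52.0% and 6 over 27025 genes. Those 27025 genes were not limited to genes that passed the filter on low counts, as all members did. The medians were 65.2% for members that rose, 66.0% for those that fell and 59.4% for the others.

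The TATA motif TATAAA was in 0 of 31 member windows, against 13.0% of all genes. CCAAT, the core of NF-Y sites, was in 14 of 31, against 34.5%, among them Ints3, Ints6, Ints13 and Pcf11 of the genes shown, and GGGCGG, a GC box bound by Sp1, in 19 of 31, against 32.9%. CGGAAG, the core of ETS sites, was in 10 of 31, against 13.8%. The CRE motif TGACGTCA, the E-box CACGTG, the NRF1 motif TGCGCATGC and the YY1 motif AAGATGGC were each in 1 of 31, against 1.62%, 6.05%, 1.34% and 1.59%. GGGCGG was found in 5 members that rose, 3 that fell and 11 others, and CCAAT in 6, 2 and 6. The windows available in each of these groups were not counted, so these numbers give no shares. No motif contains another, and a pair of CCAAT matches on opposite strands adjoin in Pcf11. A match only describes these letters.

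The subunits that link Integrator to its phosphatase and to a DNA repair complex showed the largest rises. Ints3 (ENSMUSG00000027933, chromosome 3, 90391388 to 90433622 in GRCm38) encodes a scaffold that also forms the SOSS complex with single-stranded DNA-binding proteins. It had 95.2, 85.9 and 104 TMM-scaled CPM in the repletion libraries, against 19.5, 23.8 and 18.8 in the control libraries. The lowest repletion library was thus well above the highest control library. The log2 fold change was 2.20 ± 0.13 (SE, n = 3 per group; edgeR quasi-likelihood test, adjusted p = 5.33e-09), and it lay between 2.13 and 2.29 when any 1 library was left out.

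Ints6 (ENSMUSG00000035161, chromosome 14, 62676330 to 62761169), whose product brings PP2A to Integrator, had 40.7, 49.9 and 50.0 CPM in the repletion libraries, against 15.2, 14.3 and 12.0 in the control libraries. The groups did not overlap. Its log2 fold change was 1.76 ± 0.15 (SE; edgeR quasi-likelihood test, adjusted p = 2.36e-07). Its X-linked paralog Ints6l stood at 33.3, 32.2 and 30.6 CPM in the repletion libraries, against 30.3, 34.6 and 31.8 in the control libraries, with a log2 fold change of -0.01 ± 0.13 (edgeR test, adjusted p = 0.956). Here the groups overlapped throughout, and the sign turned under library size scaling (0.05), with a minimum of 1 CPM (0.0010) and without repletion replicate 3 or control replicate 2. Of the SOSS partners of Ints3, Nabp1, which encodes a single-stranded DNA-binding protein, rose by 0.56 and Inip, which encodes the small remaining subunit, fell by 0.46. Nabp2, the other binding protein gene, had a log2 fold change of -0.11 (edgeR quasi-likelihood test, adjusted p = 0.588). Nabp1 did not pass without repletion replicate 2, control replicate 2 or control replicate 3, nor Inip without repletion replicate 3. The PP2A scaffold and catalytic genes Ppp2r1a and Ppp2ca had log2 fold changes of -0.16 and 0.20 (edgeR quasi-likelihood test, adjusted p = 0.207 and 0.147).

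The Integrator arm is a module of Ints10, Ints13 and Ints14 that has been linked to enhancers and to binding of other proteins; Ints13 rose, Ints10 fell and Ints14 did not pass. Ints13 (ENSMUSG00000040250, chromosome 6, 146549632 to 146577835) had 60.5, 63.0 and 67.2 CPM in the repletion libraries, against 24.3, 23.1 and 20.7 in the control libraries. Its libraries were close together within each group and far apart between groups, with a log2 fold change of 1.49 ± 0.12 (SE; edgeR quasi-likelihood test, adjusted p = 2.39e-07). Ints10 (chromosome 8, 68793929 to 68831667) was lower, at 47.3, 39.2 and 39.5 CPM in the repletion libraries, against 62.0, 62.6 and 63.9 in the control libraries, and fell by 0.58 ± 0.12 (edgeR quasi-likelihood test, adjusted p = 0.000980). Ints14, the direct binding partner of Ints13, had 35.8 ± 4.17 CPM in the repletion group and 30.2 ± 3.38 in control (SD, n = 3 each), with overlapping groups (edgeR quasi-likelihood test, adjusted p = 0.172).

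Of the 3 genes of the cleavage module, Ints11 and Ints4 fell and Ints9 did not pass. Ints11 (ENSMUSG00000029034, chromosome 4, 155869546 to 155889103) encodes the endonuclease, Ints9 its catalytically inactive partner and Ints4 the scaffold that holds both. Ints11 had 22.5, 22.1 and 20.7 CPM in the repletion libraries, against 27.1, 33.3 and 37.6 in the control libraries. The control libraries were more spread than the repletion libraries, yet all lay above them, and Ints11 fell by 0.59 ± 0.15 (SE; edgeR quasi-likelihood test, adjusted p = 0.00424). Of its exonic bases, 22.7% are also exonic in Pusl1 on the opposite strand, which had a log2 fold change of 0.40 (edgeR quasi-likelihood test, adjusted p = 0.118), and the strand setting of the counting was not stated, so its value is uncertain.

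Ints4 had 77.2, 62.6 and 70.3 CPM in the repletion libraries, against 92.9, 101 and 96.6 in the control libraries, with no overlap, and fell by 0.47 ± 0.11 (edgeR quasi-likelihood test, adjusted p = 0.00304). Ints9 had a log2 fold change of -0.17 ± 0.14 (edgeR test, adjusted p = 0.338), with overlapping groups. All 3 genes of the module thus had lower group means. Of these, Ints4 passed and Ints11 passed with an uncertain value, while 19.2% of all tested features fell.

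Among the backbone and shoulder genes, 3 rose, 1 fell and 2 did not pass. Ints1, which encodes the largest scaffold subunit and had the highest level per length of the Integrator genes, stood at 244, 223 and 243 CPM in the repletion libraries, against 201, 231 and 217 in the control libraries. These groups overlapped, and the log2 fold change was 0.13 ± 0.10 (edgeR quasi-likelihood test, adjusted p = 0.330), or -0.12 once trends with length and GC content were removed in each library. Ints7, another backbone gene, had 122, 136 and 138 CPM in the repletion libraries, against 91.0, 98.7 and 91.9 in the control libraries, and rose by 0.49 ± 0.10 without overlap. The shoulder gene Ints5 had 34.6, 44.5 and 38.9 CPM in the repletion libraries, against 25.6, 24.1 and 28.4 in the control libraries, and rose by 0.59 ± 0.14. Its neighbour in the shoulder, Ints8, rose by 0.45 ± 0.12, and neither overlapped between groups. Of the exonic bases of Ints5, 14.3% lie in an exon of Gm49416 on the same strand, and Gm13126 is a near-identical copy, so its value is uncertain. Ints12, the gene of a PHD-finger subunit that binds Ints1, had 23.4, 17.6 and 20.8 CPM in the repletion libraries, against 29.5, 34.5 and 30.8 in the control libraries. It fell by 0.62 ± 0.15 (edgeR quasi-likelihood test, adjusted p = 0.00302). Ints2 had a log2 fold change of -0.05 ± 0.13, with overlapping groups.

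**Figure D2:**
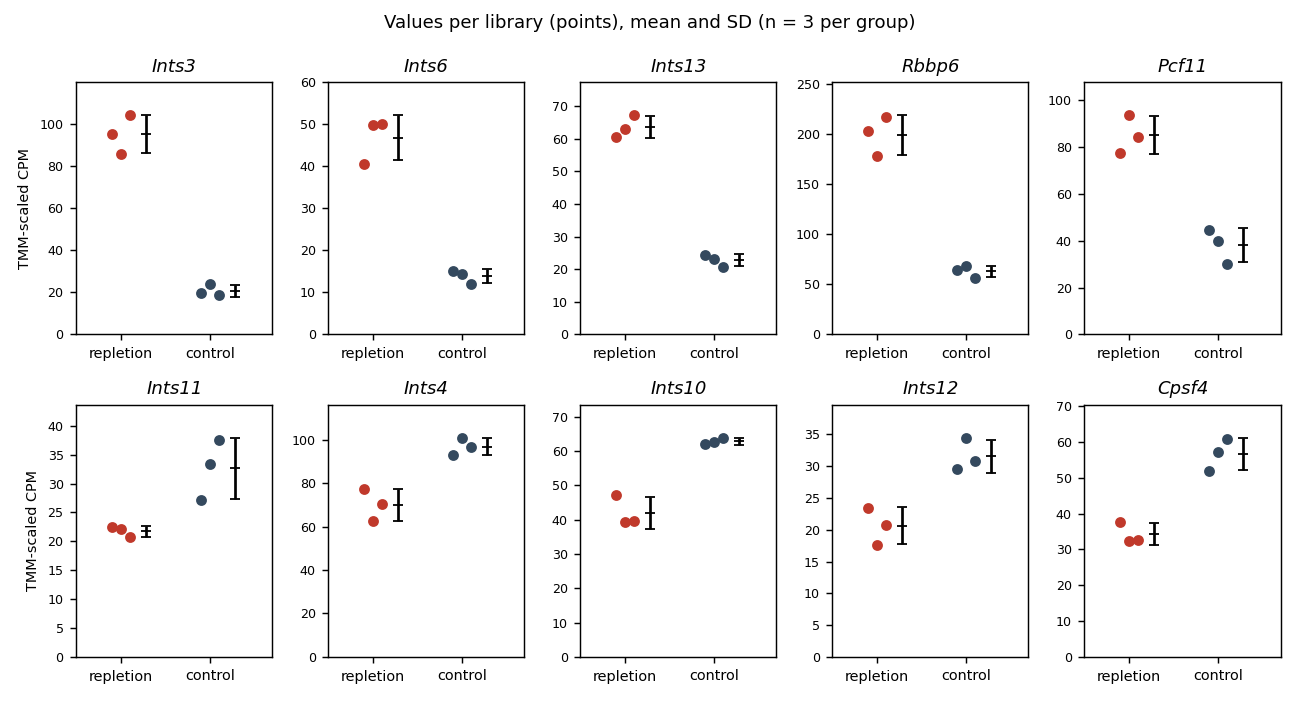
TMM-scaled CPM in each of the 6 libraries for the 5 members that rose at least 2-fold and for 5 that fell, with mean and SD beside the points (n = 3 per group) and each vertical axis starting at 0. The members shown were taken from those whose groups did not overlap, so none of the 10 panels shows overlap. Scaf4 and Sympk, which passed with overlapping groups, are not shown.

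Levels per length changed their order among the Integrator genes. On the scale of the deposited FPKM (fragments per kilobase of feature, scaled to library depth), the control group ran from 23.1 ± 1.6 for Ints1 to 0.813 ± 0.0975 for Ints6 (SD, n = 3). The genes that rose most were among the lowest 3 of the 15 in control: Ints3 at 3.60 ± 0.468, Ints13 at 2.64 ± 0.213 and Ints6. In the repletion group, Ints3 reached 16.7 ± 1.54 FPKM and the third place of 15, after Ints1 at 25.4 ± 1.13 and Ints7 at 18.0 ± 1.27. Ints13 reached 7.46 ± 0.417 FPKM, beside Ints11 at 7.05 ± 0.307, which had stood at 10.5 ± 1.7 in control. Ints6 stayed among the lowest, at 2.78 ± 0.328 FPKM in the repletion group, near Ints12 at 2.58 ± 0.351. The feature length behind FPKM counts all annotated exons. Bases annotated in retained-intron transcripts only lower the FPKM of a gene where they are not transcribed. They make up 63.7% of the exonic bases of Ints13, 58.0% of those of Ints12, 22.6% of those of Ints6 and 21.3% of those of Ints3. The share is also high for Ints9 (60.8%), Ints4 (49.9%) and Ints2 (41.4%), and it is 0% for Ints5, Ints8 and Ints6l. Counts per feature do not separate retained-intron transcripts from coding ones.

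**Figure D3:**
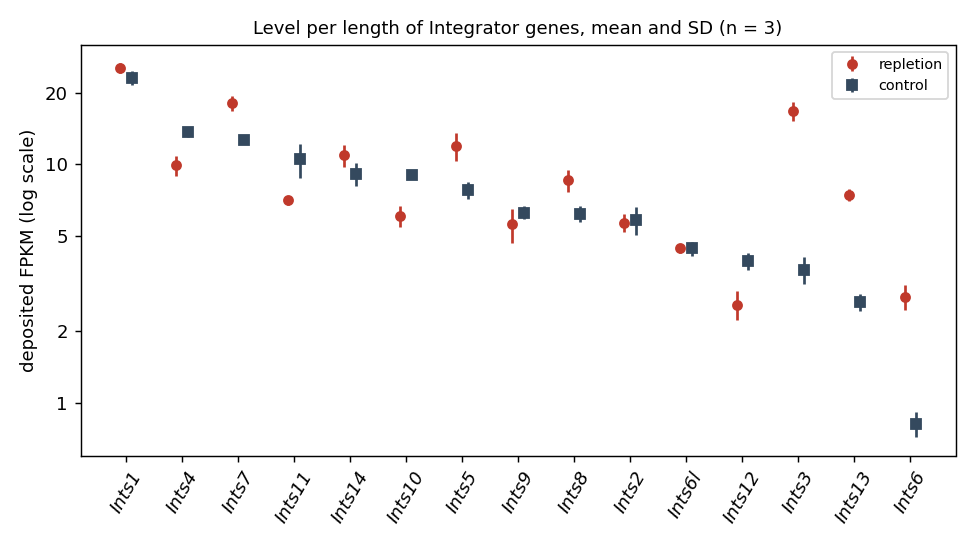
Deposited FPKM of the 15 Integrator genes on a log axis, mean and SD of 3 repletion and 3 control libraries, ordered by the control level. Ints3, Ints13 and Ints6 stand lowest in control and only Ints1 and Ints7 stand above Ints3 in the repletion group.

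Within the CPSF module, the activator Rbbp6 rose strongly while in the signal-recognising core Cpsf4 fell and Wdr33 rose. Rbbp6 (ENSMUSG00000030779, chromosome 7, 122965686 to 123002557) encodes a RING-finger protein needed to switch on the CPSF endonuclease. It had 203, 178 and 217 CPM in the repletion libraries, against 64.0, 68.0 and 56.9 in the control libraries, a clear gap between groups. Its upstream window holds 1 CGGAAG and no CCAAT. The log2 fold change was 1.66 ± 0.11 (SE; edgeR quasi-likelihood test, adjusted p = 2.63e-08). It was 1.25 once the trend with length and GC was removed.

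Cpsf4 (ENSMUSG00000029625, chromosome 5, 145167213 to 145182041), a zinc-finger subunit that contacts the polyadenylation signal, had 37.8, 32.4 and 32.6 CPM in the repletion libraries, against 51.8, 57.3 and 60.9 in the control libraries. It fell by 0.73 ± 0.12 without overlap (edgeR quasi-likelihood test, adjusted p = 0.000227). Its partner at the signal, Wdr33, went the other way, at 37.0, 31.9 and 45.1 CPM in the repletion libraries, against 25.9, 30.6 and 29.5 in the control libraries, a narrow gap. It rose by 0.40 ± 0.15, but was 0.26 (edgeR quasi-likelihood test, adjusted p = 0.233) without repletion replicate 3, and it did not pass without any 1 control library or without a filter on low counts. Cpsf1, the gene of the large scaffold subunit, had 113, 91.1 and 97.9 CPM in the repletion libraries, against 124, 143 and 144 in the control libraries. It fell by 0.44 ± 0.11 without overlap.

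The endonuclease gene Cpsf3 stood at 96.0, 70.1 and 84.7 CPM in the repletion libraries, against 75.1, 75.6 and 79.8 in the control libraries. The repletion libraries lay on both sides of the control libraries, and the difference did not pass (edgeR quasi-likelihood test, adjusted p = 0.443). Its partner Cpsf2 and the polymerase-binding subunit gene Fip1l1 had log2 fold changes of 0.02 ± 0.10 and 0.01 ± 0.13. Sympk, which encodes the scaffold symplekin, fell by 0.29 ± 0.11 (edgeR quasi-likelihood test, adjusted p = 0.0442), although its groups overlapped at 189 CPM in repletion replicate 1 and 186 CPM in control replicate 1. It did not pass without repletion replicate 2 or 3, without control replicate 2 or 3, with library size scaling or with a minimum of 1 CPM.

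Of the factors around the cleavage site, Pcf11 and Cstf3 rose and the CFIm genes did not pass. Pcf11 (ENSMUSG00000041328, chromosome 7, 92643543 to 92669934) encodes the CFIIm subunit that binds the polymerase tail and takes part in termination. It had 77.6, 93.5 and 84.1 CPM in the repletion libraries, against 44.6, 39.7 and 30.2 in the control libraries. The groups did not overlap, and the log2 fold change was 1.16 ± 0.14 (SE; edgeR quasi-likelihood test, adjusted p = 8.43e-06). Clp1, which encodes the RNA kinase of the same factor, had a log2 fold change of 0.03 ± 0.16 and 17.1 ± 2.12 CPM in the repletion group, against 16.8 ± 1.03 in control (SD, n = 3 each).

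Cstf3, the gene of the CstF scaffold, had 59.5, 69.4 and 62.3 CPM in the repletion libraries, against 47.1, 41.7 and 40.5 in the control libraries, and rose by 0.57 ± 0.12 without overlap. Cstf2, whose product binds the downstream element, stood at 157, 146 and 159 CPM in the repletion libraries, against 170, 177 and 157 in the control libraries, with overlapping groups (edgeR quasi-likelihood test, adjusted p = 0.345). Cstf1 had a log2 fold change of -0.25 ± 0.12 (edgeR test, adjusted p = 0.107), and passed without repletion replicate 1 (0.0425). In the CFIm complex, which binds upstream of the site and steers the choice between sites, Nudt21 had 58.5, 68.5 and 72.0 CPM in the repletion libraries, against 68.9, 60.2 and 64.8 in the control libraries. Cpsf6 had 149, 198 and 174 CPM in the repletion libraries, against 179, 171 and 165 in the control libraries. Both had overlapping groups, with log2 fold changes of 0.04 ± 0.12 and 0.02 ± 0.11, and Cpsf6 turned to -0.21 once the trend with length and GC was removed. Cpsf7 had a log2 fold change of 0.15 ± 0.11 (edgeR quasi-likelihood test, adjusted p = 0.276), although its 3 repletion libraries all lay above control.

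Of the genes for tailing and termination, 2 rose and 1 fell, and each of these 3 calls was lost when one or another library was left out. Papola, the gene of the main nuclear poly(A) polymerase and the member with the highest level per length, had 264, 300 and 305 CPM in the repletion libraries, against 235, 248 and 224 in the control libraries. The groups lay apart by a small margin, and it rose by 0.30 ± 0.10 (edgeR quasi-likelihood test, adjusted p = 0.0264). The call was lost without repletion replicate 2 or 3, without any 1 control library and without a filter on low counts, with a highest adjusted p of 0.136 in edgeR over these. Its paralog Papolg had a log2 fold change of -0.03 ± 0.14. Xrn2 had 145, 153 and 167 CPM in the repletion libraries, against 136, 148 and 141 in the control libraries, with overlapping groups (edgeR quasi-likelihood test, adjusted p = 0.315).

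Scaf4 and Scaf8 encode related proteins that bind the polymerase tail and hold back the use of early polyadenylation sites. Scaf4 rose by 0.43 ± 0.16 and Scaf8 fell by 0.30 ± 0.11 (edgeR quasi-likelihood test, adjusted p = 0.0343 and 0.0309). Scaf4 had 62.6, 41.3 and 51.1 CPM in the repletion libraries, against 31.9, 44.1 and 38.8 in the control libraries, so its groups overlapped. Without repletion replicate 1 its log2 fold change was 0.27 (edgeR test, adjusted p = 0.167), and it did not pass without repletion replicate 3, control replicate 1 or control replicate 3 either. Scaf8 had 87.8, 75.2 and 83.1 CPM in the repletion libraries, against 97.0, 106 and 101 in the control libraries, with no overlap, yet it did not pass without repletion replicate 2 or 3, without control replicate 2 or 3 or with library size scaling.

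Ratios between related genes within a library show these contrasts without any scaling between libraries. Of 7 pairs, 3 had ratios of CPM per kilobase that did not overlap between groups. No such share was computed over other pairs of genes, and 50.3% of single tested features did not overlap. Each ratio restates members described above and adds no separate evidence. Ints6l over Ints6 was 1.91, 1.51 and 1.43 in the repletion libraries, against 4.67, 5.66 and 6.22 in the control libraries. Scaf8 over Scaf4 was 1.32, 1.71 and 1.53 in the repletion libraries, against 2.86, 2.27 and 2.44 in the control libraries. Ints11 over its homologue Cpsf3, both endonucleases of the same metallo-beta-lactamase fold, was 0.403, 0.542 and 0.420 in the repletion libraries, against 0.621, 0.759 and 0.811 in the control libraries. This ratio is uncertain as well, since the value of Ints11 is. The differences were -1.77, -0.73 and -0.69 on the log2 scale, and each pair reached 0.1 in an exact two-sided permutation test, the lowest p that 3 against 3 allow, and an adjusted p of 0.233 over the 7 pairs. The ratios of Cstf2t to Cstf2, Papolg to Papola, Cpsf7 to Cpsf6 and Ints9 to Cpsf2 overlapped between groups, with exact permutation p of 0.2 to 0.5.

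**Figure D4:**
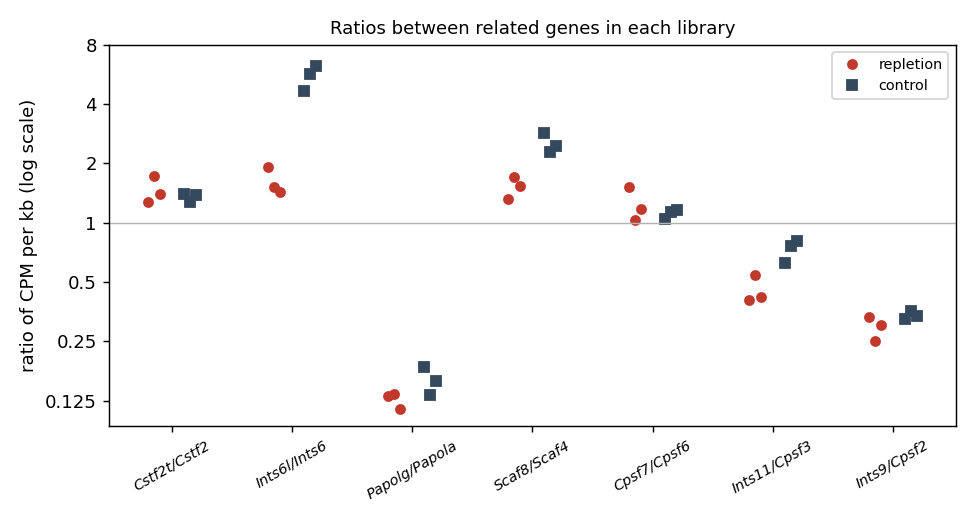
Ratio of CPM per kilobase between related genes in each of the 6 libraries, on a log axis. The ratios Ints6l/Ints6, Scaf8/Scaf4 and Ints11/Cpsf3 are lower in all 3 repletion libraries than in any control library. The other 4 pairs overlap, and the value of Ints11 is uncertain.

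The genes that work beside the members are described by 7 further lists. Of 97 tested genes in these lists, 17 rose, or 17.5%, and 14 fell, or 14.4%, against 20.5% and 19.2% of tested features, with a median log2 fold change of 0.01. The lists and their members were chosen with earlier results of these data known, so these counts are a description. Among 14 Integrator partners (PP2A, SOSS, NELF and the factor Spt4/5), 1 rose and 2 fell: Nabp1 and Inip, which pair with Ints3, and the NELF subunit gene Nelfe, which fell by 0.41 and did not pass in 5 of 17 alternatives. Of 14 genes for histone pre-mRNA processing and the cap-binding complex, 2 rose and 1 fell. Srrt, the gene of the cap-binding partner ARS2, rose by 0.38 (not without repletion replicate 3, control replicate 1 or control replicate 3), and Slbp, which encodes the histone stem-loop binding protein, had a log2 fold change of -0.26 (edgeR quasi-likelihood test, adjusted p = 0.0650). Of 14 genes for snRNA promoters and snRNP assembly, 1 rose and 3 fell (1 without control replicate 3), with the SMN complex genes Gemin6 up by 1.05 and Gemin2 down, at 15.0 CPM in the repletion group, against 33.0 in control.

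Among 8 genes of U1 snRNP, a particle that guards transcripts from early polyadenylation, 1 rose and 1 fell. The U1-associated gene Luc7l fell by 0.76 ± 0.12, and its paralog Luc7l2 rose by 0.47 ± 0.10, or 0.25 once the trend with length and GC was removed. The core U1 genes Snrnp70, Snrpa and Snrpc had log2 fold changes of 0.26, -0.09 and -0.23 (edgeR quasi-likelihood test, adjusted p = 0.160, 0.594 and 0.207). Of 14 genes for phosphatases and readers of the polymerase tail, 4 rose and 2 fell. The small phosphatase genes Ctdsp1, Ctdsp2 and Ctdspl rose by 0.80, 0.71 and 1.31, while Ctdspl2 had a log2 fold change of 0.01 (edgeR quasi-likelihood test, adjusted p = 0.935). That of Ssu72, the phosphatase tied to symplekin, was 0.03. Of 10 tested genes for poly(A)-binding proteins and non-canonical polymerases, 2 rose and 2 fell, with Tent4a up by 0.59 and the poly(A)-binding protein gene Zc3h14 down by 0.42 on the log2 scale.

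Of 23 regulators of polyadenylation site choice, 6 rose and 3 fell, with a median log2 fold change of 0.14. The number that rose was 11 with library size scaling. Cdk12, a kinase of the polymerase tail known to restrain intronic polyadenylation, stood at 48.6 CPM in the repletion group and 16.4 in control, and rose by 1.56 ± 0.17. The RNA-binding protein gene Mbnl1 rose by 1.10, or 0.69 once the trend with length and GC was removed. The hnRNP gene Hnrnpc and the PP1 catalytic genes Ppp1ca and Ppp1cb fell by 0.57, 0.51 and 0.49. The remaining PP1 catalytic gene, Ppp1cc, had a log2 fold change of 0.24 (edgeR quasi-likelihood test, adjusted p = 0.0599). Cdk13, the paralog of Cdk12, and their cyclin gene Ccnk had log2 fold changes of 0.32 and -0.08 (edgeR quasi-likelihood test, adjusted p = 0.0506 and 0.597).

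Gene structure is given as a description. The median feature length was 6960 bases for members that rose, 6390 for those that fell and 5490 for the others, against 4480 over tested protein-coding genes. Across the 37 members, log2 fold change and log length had a Pearson correlation of 0.316 and a Spearman correlation of 0.125, against 0.187 and 0.246 across 11670 tested protein-coding genes; all these genes share the same 6 libraries. Bases annotated in retained-intron transcripts only made up a median of 22.0% of the exonic bases of members that rose, 35.4% of those that fell and 11% of the others, against 6.73% over tested protein-coding genes, with a Pearson correlation of -0.0951 with the log2 fold change. Another annotated feature overlapped 26 of the 37 genes, on the same strand for 10, but only Ints5 and Ints11 shared over 10% of their exonic bases with one. Ints13 lies across from Fgfr1op2, which had a log2 fold change of -0.12, and shares 0.672% of its exonic bases with it. Ints14 has a near-identical copy, 6330549D23Rik, so its value is uncertain.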

How the data were processed

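Groups followed the sample titles, and the members and lists were chosen with earlier results of these data known. Per the submitters' processing notes, the build was GRCm38.p6 and the tools were DESeq2 1.20.0, featureCounts 1.5.0-p3 and HISAT2 2.0.5; roles, strand setting and annotation release are not given there. The deposited table holds, per the file headers, raw counts of reads per feature, FPKM, group means of normalised counts (a signal on a linear scale, not used here), and the log2 fold change, p-values and adjusted p-values of the authors' comparison.

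A filterByExpr filter by group kept 13804 of 55232 features. After TMM scaling (factors of 0.970 to 1.03), all of these were tested with edgeR 4.0.16 in R 4.3.3 (glmQLFit and glmQLFTest, two-sided, Benjamini-Hochberg adjustment, threshold 0.05). The common dispersion gave a coefficient of variation of 14.1%. SE was derived from the F statistic, and CPM are TMM-scaled, apart from marker and snRNA sums, which use the library total. The test was tried on simulated counts with the same dispersion for every feature. The outcome of that trial is not given here and bears on no call. Members past the threshold with groups that did not overlap were named with their libraries (up to 8 in each direction), as were the catalytic and scaffold members; other members were named freely, and related genes by the smallest p of each list or when past the threshold, the others as partners of named genes, chosen after their values were seen. GC content, exons and near-identical copies (BLAST 2.17.0, 95% identity over 30% of the longest transcript) came from GENCODE M21 on GRCm38, where 33 of 37 members had the deposited start and end. Promoter sequences came from RefSeq in GRCm38.p6. Alternatives were DESeq2 1.42.0, limma-voom 3.58.1, RLE, upper quartile or library size scaling, other filters, protein-coding genes only, removal of length and GC trends (mgcv), a replicate block and leaving out each library.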

Additional observations from a re-analysis of the deposited data

How the results depend on the processing

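Of the 12 members that rose, 9 (Ints3, Ints6, Ints13, Rbbp6, Pcf11, Ints5, Ints7, Ints8 and Cstf3) passed in the same direction in all 17 alternatives, and of the 8 that fell, 6 did (Cpsf1, Cpsf4, Ints4, Ints10, Ints11 and Ints12). With 1 library left out, 9 to 11 members rose and 6 to 9 fell; 11 to 18 related genes rose and 9 to 18 fell, the lowest of each without control replicate 3. Samples with the same replicate number did not deviate together (correlations of -0.114, -0.068 and 0.0571), so the numbers do not pair them; with a replicate block, 9 members rose and 6 fell, and Papola, Scaf4, Wdr33, Scaf8 and Sympk did not pass (edgeR adjusted p = 0.0630, 0.0679, 0.0593, 0.0693 and 0.0916). With the block and removal of the length and GC trend 12 rose, 8 fell and 11 related genes rose, among them 3 regulators of site choice, against 6 in the fit without block or trend removal and 11 with library size scaling. Over the alternatives, other lists had 0 to 4 genes that rose and 0 to 4 that fell. The cause was not tested. Signs turned for members near 0. Cstf2t was at 0.0036 with RLE, 0.0569 with library size, 0.0066 with a minimum of 1 CPM, 0.0032 with protein-coding genes only, 0.0168 with the length and GC trend removed and 0.0132 with the block besides. Library size scaling gave Ints6l 0.0512, Papolg 0.0365 and Ints2 0.0111, and the minimum of 1 CPM gave Ints6l 0.0010. No filter gave Clp1 -0.0106, Cpsf2 -0.0132, Cpsf6 -0.0198 and Fip1l1 -0.0260, and the upper quartile Fip1l1 -0.0012. Trend removal gave Ints1 -0.116, Cpsf6 -0.206 and Fip1l1 -0.242, and with the block -0.116, -0.208 and -0.255. With 1 library left out, log2 fold changes ran from -0.0473 to 0.121 for Clp1, -0.0459 to 0.0522 for Cpsf2, -0.0909 to 0.112 for Cpsf6, -0.0979 to 0.0658 for Cstf2t, -0.112 to 0.114 for Fip1l1, -0.159 to 0.0261 for Ints2, -0.0722 to 0.0240 for Ints6l, -0.0304 to 0.117 for Nudt21 and -0.129 to 0.0844 for Papolg, and ratio differences from -0.0070 to 0.207 for Cstf2t/Cstf2 and -0.0094 to 0.265 for Cpsf7/Cpsf6. The design of 3 against 3 limits single-value permutation tests to 0.1.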

Other observations

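Features annotated as small nuclear RNA were hardly covered by these libraries. Integrator cuts nascent small nuclear RNAs, but which of these features it cuts was not determined. Of 1385 features annotated as snRNA, 3 passed the filter on low counts, with adjusted p of 0.479 to 0.959 in the edgeR quasi-likelihood test. The most covered, Gm25047, had 119, 113 and 66 reads in the repletion libraries, against 104, 109 and 110 in the control libraries, with a log2 fold change of -0.14 ± 0.25 (SE; edgeR test, adjusted p = 0.691). All snRNA features together summed to 30.9, 30.7 and 23.4 CPM in the repletion libraries, against 16.3, 20.2 and 20.2 in the control libraries. The difference between these sums was not tested, and this list and Gm25047 were chosen after their values were seen.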
